A study of Arabidopsis thaliana with 30 samples.

Results

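The comparison described here is of dcl1-24/hyl1-2 double mutant seedlings with Col-0 wild-type seedlings, both kept in the warm at 27 °C. Its members are the 3 dcl1-24/hyl1-2 and the 3 Col-0 libraries labelled 27 °C, 6 of the 30 libraries of the series, and the 21780 of 25300 listed genes that reached at least 1 CPM (the reads of a gene relative to all counted reads of its library, on a fixed scale) in 3 or more of the 30 libraries. All seedlings were whole Arabidopsis thaliana plants, 4 d old, raised in continuous red light at 21 °C and moved to 27 °C for the last 2 d. Both mutant groups carried hyl1-2, a T-DNA insertion allele of HYL1. The double mutant also carried dcl1-24, a change of a proline to a serine in the RNase IIIa domain of DCL1. The allele came from 1 line of a chemical mutagenesis screen for plants that suppress hyl1-2, so other changes in that line, differences between seed stocks and the dcl1-24 allele itself cannot be told apart. For values side by side, the report also uses hyl1-2 and Col-0 seedlings at 27 °C, and dcl1-24/hyl1-2 and Col-0 seedlings kept at 21 °C throughout, with 3 libraries per group.

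DCL1 is the endonuclease that cuts plant microRNAs (miRNAs) out of hairpins in their primary transcripts, and HYL1 is a double-stranded RNA-binding partner that helps DCL1 cut at the right place and rate. A mature miRNA, loaded on AGO1, pairs with a messenger RNA and causes it to be cut or less translated, so the targets of a miRNA tend to accumulate when the miRNA is scarce. The study isolated dcl1-24 as an allele that restores the warm elongation response to hyl1-2. The question of this comparison is which transcripts still differ from wild type in the warm when both mutations are present.

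Small RNA targets that changed are introduced first with the miRNAs that pair with them, so that the recognised letters can be read. The 4 mature miRNAs below pair with the targets that were called higher in dcl1-24/hyl1-2, and miR156 is shown because the study centres on it. Capitals mark the seed, bases 2 to 8 of the miRNA. The positions are on TAIR10.1 and the sequences were read from the RefSeq annotation and genome of that build.
miR169a-5p, chr3:4359182-4359202, minus strand: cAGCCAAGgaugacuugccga
miR824-5p, chr4:12625128-12625148, plus strand: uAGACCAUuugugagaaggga
miR395a, chr1:9363206-9363226, minus strand: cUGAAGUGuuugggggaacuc
miR173-5p, chr3:8236161-8236182, plus strand: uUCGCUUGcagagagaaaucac
miR156a-5p, chr2:10676534-10676553, minus strand: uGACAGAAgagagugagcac

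The seed of miR169a-5p is shared by 10 annotated members of its family, that of miR395a by 6 and that of miR156a-5p by 10, whereas miR824-5p and miR173-5p had no seed partner in their families. The sites below are the best-paired stretches of each target, read 5′ to 3′ on the transcript. Capitals mark the bases that face the seed.
NF-YA8 site for miR169, chr1:6050422-6050442, minus strand, 3′ UTR: aagggaagucaucCUUGGCUg
NF-YA2 site for miR169, chr3:1676807-1676827, minus strand, 3′ UTR: caggcaaaucaucUUUGGCUc
AGL16 site for miR824, chr3:21180537-21180557, plus strand, 3′ UTR: ucucuucucacaaAUGGUCUa
SULTR2;1 site for miR395, chr5:3193268-3193288, plus strand, coding sequence: aaguucucccaaaCACUUCAa
TAS1C site for miR173, chr2:16537890-16537911, minus strand, non-coding transcript: gugauuuuucucuaCAAGCGAa
SPL9 site for miR156, chr2:17589066-17589085, plus strand, coding sequence: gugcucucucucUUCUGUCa
SPL3 site for miR156, chr2:14305878-14305897, plus strand, 3′ UTR: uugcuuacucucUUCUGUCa

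The AGL16 site pairs with miR824-5p at 20 bases, with 1 G:U pair and no mismatch. The NF-YA8 site has 18 pairs and 3 mismatches to miR169a-5p, and the NF-YA2 site has 16 pairs, 1 G:U pair and 4 mismatches, with 1 of its 7 seed positions not a standard pair. A match of letters describes the transcript and does not show that it was cut in these seedlings.

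The 6 libraries held 20.9 to 23.9 M counted reads, within the 18.4 to 27.1 M of the whole series. In these 6 libraries 3 reads corresponded to 0.125 to 0.144 CPM. Transcripts of the chloroplast genome took 0.377% to 0.494% of the reads in dcl1-24/hyl1-2, against 2.04% to 2.42% in Col-0, and those of the mitochondrial genome 0.0233% to 0.0368% against 0.146% to 0.229%. Since the shares of such abundant transcripts move every CPM value, a gene is said to have risen or fallen only where it was called in the same direction under the deposited totals and under median-of-ratios scaling. Changes are given as relative log2 changes on the log2(CPM + 0.5) scale, that is the change of the fit less the change of the gene in the middle of the ranking, 0.16 at 27 °C, with the standard error (SE) of the fit. This scale understates changes of transcripts near 0. Adjusted p-values are those of limma with Benjamini-Hochberg adjustment over all 21780 genes and test the change before that subtraction. Libraries are listed in the order of replicates 1, 2 and 3. Nothing in the labels says that replicates came from separate sowings, so p-values measure the spread between these libraries. In whole seedlings, fewer cells of a type and less RNA per cell cannot be told apart.

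Under both scalings 331 genes were called, 1.52% of those tested. Of these, 126 rose in dcl1-24/hyl1-2 (0.579% of the genes tested) and 205 fell (0.941%). The deposited totals alone called 451 genes (2.07%), 245 higher (1.12%) and 206 lower (0.946%), and median-of-ratios scaling called 126 higher and 314 lower, so the scaling moved the balance of the directions. At an unadjusted p under 0.05 in limma under the deposited totals were 3785 of the 21780 genes, the background for such counts in the lists below. Of the 331 genes, 202 differed at least 2-fold and the median size of the relative change was 1.13. In all 331 the 3 libraries of 1 genotype lay above the 3 of the other, so a lack of overlap adds nothing to a call. Leaving out 1 library at a time brought the 451 calls of the deposited totals to between 176 and 320, with 176 without Col-0 replicate 3, 180 without dcl1-24/hyl1-2 replicate 1, 285 without dcl1-24/hyl1-2 replicate 3 and 299 without Col-0 replicate 2. With replicate number as a block over all 30 libraries, 818 genes were called, and no named call was lost. Residuals of equally numbered libraries of the compared groups correlated above 0.1 within a temperature. Values and calls below come from fits without the block unless it is named, so a gene not called here may be called with it.

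HYL1 itself had 16.7, 12.5 and 14.4 CPM in dcl1-24/hyl1-2, against 8.73, 8.58 and 6.17 CPM in Col-0, and hyl1-2 had 18.3, 18.3 and 12.7 CPM. Every mutant library lay above every Col-0 library. Its relative log2 change was 0.70 ± 0.19 (SE, n = 3 per group; adjusted p = 0.0105), and the call was lost without Col-0 replicate 3 or dcl1-24/hyl1-2 replicate 1, at adjusted p from 0.105 to 0.135. The count covers the whole gene on both sides of the insertion and HYL1 overlaps AT1G09690, which averaged 179 CPM, so it does not check the label. DCL1 had 70.8, 73.4 and 83.1 CPM in dcl1-24/hyl1-2, against 57.2, 59.5 and 43.3 CPM in Col-0, with a relative change of 0.35 ± 0.18 that was not called (adjusted p = 0.129). The base change of dcl1-24 cannot be seen in counts.

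Targets of miRNAs outside the miR156 family rose in 4 of 77 tested cases and fell in 0, beside 0.579% and 0.941% of all genes. Their median relative change was 0.08, and 51 of the 77 lay above 0, where 50% of all genes do by construction. The 4 were NF-YA8, NF-YA2, AGL16 and SULTR2;1. Under the deposited totals alone 5 were called, beside 451 of all 21780 genes (2.07%), and with the replicate block 8, beside 818 of all 21780. In hyl1-2, set against the same Col-0 libraries, 18 of the 77 were called higher and 1 lower, beside 1.22% and 2.61% of all genes.

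NF-YA8 and NF-YA2 encode A subunits of the NF-Y complex, which binds CCAAT boxes of promoters. NF-YA8 had 4.74, 3.58 and 4.15 CPM in dcl1-24/hyl1-2, against 1.67, 1.1 and 1.48 CPM in Col-0, and rose by 1.12 ± 0.27 (SE; adjusted p = 0.00614). The hyl1-2 libraries had 7.08, 3.75 and 7.62 CPM. NF-YA2 had 19.1, 20.5 and 18.3 CPM in dcl1-24/hyl1-2, against 12.1, 10.3 and 11.7 CPM in Col-0, a rise of 0.58 ± 0.15 (adjusted p = 0.00614). The 3 hyl1-2 libraries lay far above both, at 51.9, 42.6 and 46.5 CPM, and dcl1-24/hyl1-2 against hyl1-2 gave a relative change of -1.48 that was called. The call of NF-YA8 was lost without dcl1-24/hyl1-2 replicate 1 (adjusted p = 0.0559).

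AGL16 is a MADS-box factor that acts in stomatal development and flowering time. It had 19.7, 15.5 and 22.2 CPM in dcl1-24/hyl1-2, against 9.65, 9.88 and 8.48 CPM in Col-0, and rose by 0.82 ± 0.21 (adjusted p = 0.00927). All double mutant libraries were above all Col-0 libraries and near those of hyl1-2, at 23.9, 21.2 and 28.9 CPM. The call did not hold without Col-0 replicate 3, dcl1-24/hyl1-2 replicate 1 or dcl1-24/hyl1-2 replicate 3, at adjusted p up to 0.0716. SULTR2;1, a low-affinity sulfate transporter of vascular tissue, had 140, 143 and 129 CPM in dcl1-24/hyl1-2, against 80.9, 83.6 and 73.4 CPM in Col-0, a rise of 0.63 ± 0.17 (adjusted p = 0.00728). Here hyl1-2 had 132, 93.9 and 83.6 CPM and was not called against Col-0, and the call of the double mutant was lost without Col-0 replicate 3 (adjusted p = 0.0639). The count of called targets under the deposited totals, 5, fell to 2 without Col-0 replicate 3, to 2 without dcl1-24/hyl1-2 replicate 1 and to 3 without dcl1-24/hyl1-2 replicate 3.

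Of 5 tested precursors of trans-acting siRNAs (tasiRNAs), 4 were at an unadjusted p under 0.05 in limma, beside 3785 of all 21780 genes. Higher without overlap were 4, where 23.4% of all genes were, and the median relative change was 0.44. With the replicate block 3 were called under the deposited totals, beside 818 of all genes. TAS1C, a non-coding transcript cut with miR173, was the only one called under both scalings, beside 0.579% of all genes called higher. It had 16, 7.24 and 7.19 CPM in dcl1-24/hyl1-2, against 5.05, 3.64 and 2.87 CPM in Col-0, with a relative change of 1.06 ± 0.29 (adjusted p = 0.0183). Replicate 1 of the double mutant stood above its companions, the call was lost without it, without Col-0 replicate 2 or without Col-0 replicate 3 (adjusted p up to 0.257), and the gene overlaps AT2G39670 at 45.9 CPM. Among tasiRNA targets 1 of 5 rose, beside the same 0.579%, namely HTT1, a heat-induced target of TAS1 siRNAs. HTT1 had 3.34, 1.64 and 2.1 CPM in dcl1-24/hyl1-2, against 0.626, 0.384 and 0.417 CPM in Col-0, and rose by 1.35 ± 0.25 (adjusted p = 0.000573). In hyl1-2 it had 2.54, 2.47 and 1.75 CPM, within the range of the double mutant. The group of pentatricopeptide repeat genes around the tasiRNA-targeted cluster, chosen after values were seen, had 2 of 14 members called higher, beside the same 0.579%, and its median relative change was 0.47. These were RPF3, a factor in mitochondrial RNA processing, with 18, 14.5 and 16.1 CPM in dcl1-24/hyl1-2 and 7.39, 9.25 and 5.98 CPM in Col-0 (0.91 ± 0.22, adjusted p = 0.00462; 0.0625 without Col-0 replicate 3), and AT1G63130, with 39.7, 31.1 and 31.9 CPM in dcl1-24/hyl1-2 and 19.8, 16.2 and 14.4 CPM in Col-0 (0.85 ± 0.15, adjusted p = 7.88e-05).

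The miR156-targeted SPL genes, transcription factors of the juvenile-to-adult change, had 0 of 10 tested members called at 27 °C by limma, edgeR or DESeq2. At an unadjusted p under 0.05 in limma were 3, beside 3785 of all 21780 genes. All 10 relative changes were above 0 with a median of 0.31, where the median gene of the genome is 0 by construction. SPL9 had 5.49, 5.3 and 4.51 CPM in dcl1-24/hyl1-2, against 3.55, 3.5 and 2.5 CPM in Col-0 (0.45 ± 0.21, adjusted p = 0.13), and the 3 hyl1-2 libraries lay higher, at 8.84, 8.42 and 10.7 CPM. SPL3 had 3.07, 2.72 and 3.3 CPM in dcl1-24/hyl1-2, against 2.26, 1.49 and 2.18 CPM in Col-0 (0.36 ± 0.28, adjusted p = 0.336), with hyl1-2 at 10.7, 15.3 and 9.24 CPM. For both genes the double mutant libraries lay above all Col-0 libraries and below all hyl1-2 libraries, although the difference from Col-0 was not called. SPL6 and SPL5 had relative changes of 0.56 ± 0.26 and 0.35 ± 0.33, with adjusted p-values of 0.149 and 0.419. The SPL genes without a miR156 site had 0 of 6 members called by any of the 3 tools, 0 at an unadjusted p under 0.05 and a median of 0.03. SPL3 overlaps AT2G33815, at 29.8 CPM on average, and SPL5 overlaps AT3G15260, at 20.2 CPM.

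**Figure D1:**
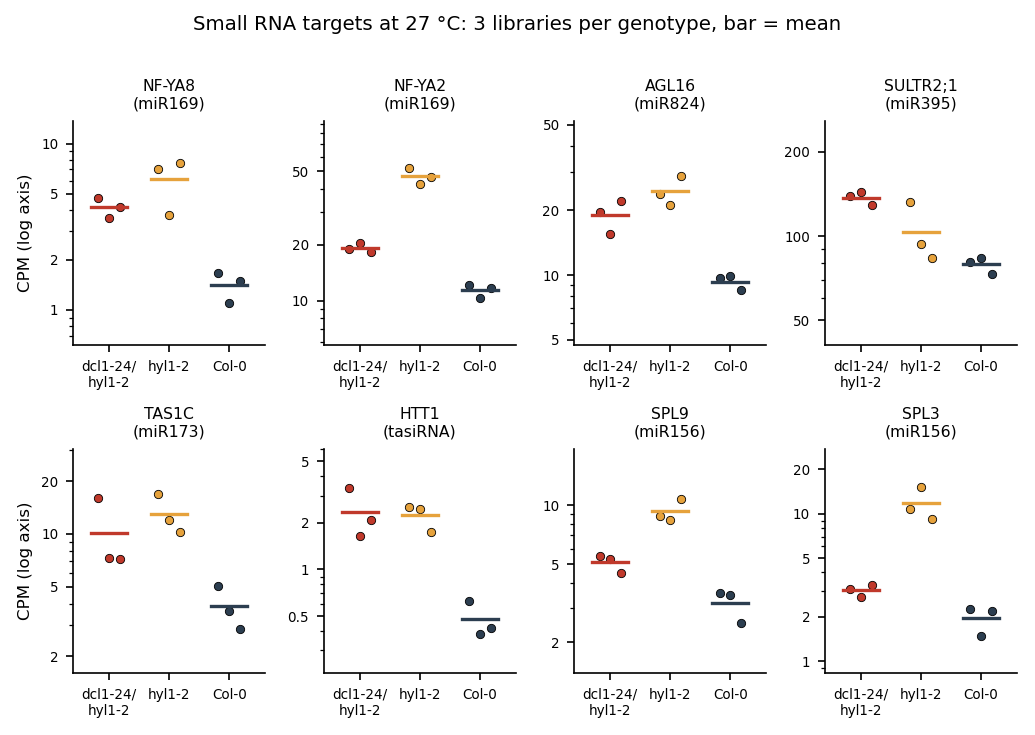
CPM on a logarithmic axis for 8 small RNA targets at 27 °C, with points for the 3 libraries of dcl1-24/hyl1-2, hyl1-2 and Col-0 and a bar at their mean; NF-YA2 lies at 18.3 to 20.5 CPM in dcl1-24/hyl1-2, 42.6 to 51.9 CPM in hyl1-2 and 10.3 to 12.1 CPM in Col-0, and SPL9 and SPL3 are likewise intermediate in the double mutant.

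Among 37 genes that make or use small RNAs, 1 rose, HYL1, and 1 fell, beside 0.579% and 0.941% of all genes. The one that fell was DRB4, which encodes the double-stranded RNA-binding partner of DCL4 in tasiRNA production. DRB4 had 3.29, 2.03 and 2.72 CPM in dcl1-24/hyl1-2, against 9.19, 8.53 and 9.04 CPM in Col-0, and fell by 1.75 (relative log2 change -1.75 ± 0.19, adjusted p = 7.2e-06). The hyl1-2 libraries, at 4.05, 2.97 and 4.99 CPM, were also below all Col-0 libraries, and at 21 °C the relative change of the double mutant was -1.91.

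None of the 326 annotated miRNA loci was a row of the table, so the transcripts were sought among other annotated genes that lie over or beside a hairpin. This list was made after values were seen and is a description. Of the 86 tested genes that overlap an annotated miRNA hairpin, 10 rose and 3 fell, beside 0.579% and 0.941% of all genes, and their median relative change was 0.04, with 46 of the 86 above 0. On the strand of the hairpin 5 of 60 rose and 2 fell, and on the opposite strand only 5 of 26 rose and 1 fell. Whether strand was used in the counting is not stated in these sources, so reads of a primary miRNA transcript and of a gene on the other strand cannot be told apart.

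AT4G30975, a non-coding gene on the strand of MIR156b, had 3.82, 3.88 and 3.169 CPM in dcl1-24/hyl1-2, against 1.63, 0.815 and 1.62 CPM in Col-0, and rose by 1.02 ± 0.26 (adjusted p = 0.00957). In hyl1-2 it reached 16.4, 12.9 and 16 CPM, so the double mutant was between the other groups without overlap with either. AT5G26146, a long non-coding RNA on the strand of MIR156f, had 17.57, 12.9 and 14.2 CPM in dcl1-24/hyl1-2, against 4.51, 5.13 and 5.47 CPM in Col-0, a rise of 1.31 ± 0.29 (adjusted p = 0.00388). Again hyl1-2 was highest, at 49.7, 31.6 and 22.5 CPM, and the non-coding gene overlaps AT5G26150, which shows the same order. AT1G32583, whose transcript spans MIR400 and MIR5654, had 6.68, 6.17 and 6.47 CPM in dcl1-24/hyl1-2, against 1.88, 1.34 and 1.44 CPM in Col-0, with hyl1-2 at 15.8, 13.1 and 13.3 CPM, and rose by 1.6 ± 0.22 (adjusted p = 9.13e-06). AT1G77230, over MIR402, had 32, 20.4 and 24 CPM in dcl1-24/hyl1-2, against 14.7, 13.4 and 11.9 CPM in Col-0 (0.73 ± 0.18, adjusted p = 0.00451). For this gene the hyl1-2 libraries, at 27.2, 23.1 and 22.5 CPM, were within the range of the double mutant.

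Opposite the miR824 hairpin, AT4G24413 had 9.18, 6.55 and 7.28 CPM in dcl1-24/hyl1-2, against 1.46, 0.527 and 0.742 CPM in Col-0, and rose by 2.42 ± 0.31 (adjusted p = 4.81e-06). Its hyl1-2 libraries had 9.67, 8.28 and 8.63 CPM, and miR824 is the miRNA whose site AGL16 carries. AT5G03553, opposite MIR822, had 13, 10.3 and 11.5 CPM in dcl1-24/hyl1-2, against 5.35, 4.17 and 5.15 CPM in Col-0 (1.01 ± 0.20, adjusted p = 0.000896). AT5G14550, opposite MIR398b, had 38, 26.2 and 28.9 CPM in dcl1-24/hyl1-2, against 18.5, 17 and 13.2 CPM in Col-0 (0.75 ± 0.19, adjusted p = 0.00668), and 93, 78.7 and 59.4 CPM in hyl1-2. In these genes, as in every called gene, no double mutant library overlapped a Col-0 library. AT2G02750 and AT2G04295, on the 2 strands at MIR840, rose by 1.28 and 1.33, and AT1G63130 above lies opposite MIR5652. The 3 that fell were AT3G06325 and AT3G41762, both over MIR5642a beside ribosomal RNA genes, and AT4G13575 over MIR3932b, with relative changes of -1.37, -1.49 and -1.35.

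Among 213 tested genes that lie within 1500 bases of a hairpin without overlapping it, 8 rose and 2 fell, beside 0.579% and 0.941% of all genes. Their median relative change was -0.01. AT1G04877, 103 bases from MIR171b, had 8.83, 8.8 and 6.7 CPM in dcl1-24/hyl1-2, against 1.17, 1.77 and 0.788 CPM in Col-0, and rose by 2.17 ± 0.30 (adjusted p = 1.57e-05). IQD20, a calmodulin-binding IQD family gene 480 bases from MIR171a, had 7.95, 4.66 and 4.55 CPM in dcl1-24/hyl1-2, against 1.25, 1.25 and 0.742 CPM in Col-0 (1.79 ± 0.25, adjusted p = 1.14e-05). AT4G06880, 407 bases from MIR168a, had 4.83, 3.32 and 4.06 CPM in dcl1-24/hyl1-2 and 0.752, 0.767 and 2.09 CPM in Col-0 (1.34 ± 0.32, adjusted p = 0.00655). All 3 were higher still in hyl1-2, at 13.5, 9.1 and 10.6 CPM for AT1G04877, 13.6, 10.8 and 9.63 CPM for IQD20 and 19, 14.9 and 17.3 CPM for AT4G06880. The others were AT4G24410 near MIR824, AT5G26150 near MIR156f, AT4G07170 near MIR319a and AT2G07605 and AT2G07615 beside MIR779, and the 2 that fell were the ribosomal RNA rows AT2G01010 and AT3G41768.

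Set against hyl1-2, 1 of the 86 overlapping genes was higher in dcl1-24/hyl1-2 and 11 were lower, beside 2.82% and 1.53% of all genes. The relative changes were -2.14 for AT4G30975, -1.34 for AT5G26146, -1.28 for AT1G32583 and -1.51 for AT5G14550, all called, while those of AT1G77230 and AT4G24413, at -0.17 and -0.43, were not called. The count of overlapping genes called higher under the deposited totals, 12 (beside 1.12% of all genes), went down to 6 without dcl1-24/hyl1-2 replicate 1 and was 9 to 11 without any other library. The genes that lost their call in at least 1 such fit were AT1G77230 and AT2G04295 (dcl1-24/hyl1-2 replicate 1), AT4G30975 (Col-0 replicate 2 or dcl1-24/hyl1-2 replicate 1), AT5G14550 and AT4G13575 (Col-0 replicate 3 or dcl1-24/hyl1-2 replicate 1), AT3G06325 (Col-0 replicates 1 or 3, or dcl1-24/hyl1-2 replicate 2) and the neighbours AT4G06880 (Col-0 replicates 1 or 2, or dcl1-24/hyl1-2 replicate 1), AT3G41768 (Col-0 replicates 1 or 3, or dcl1-24/hyl1-2 replicate 2) and AT2G01010 (any library but Col-0 replicate 2 or dcl1-24/hyl1-2 replicate 3). Their adjusted p-values then ran from 0.0513 to 0.0933.

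**Figure D2:**
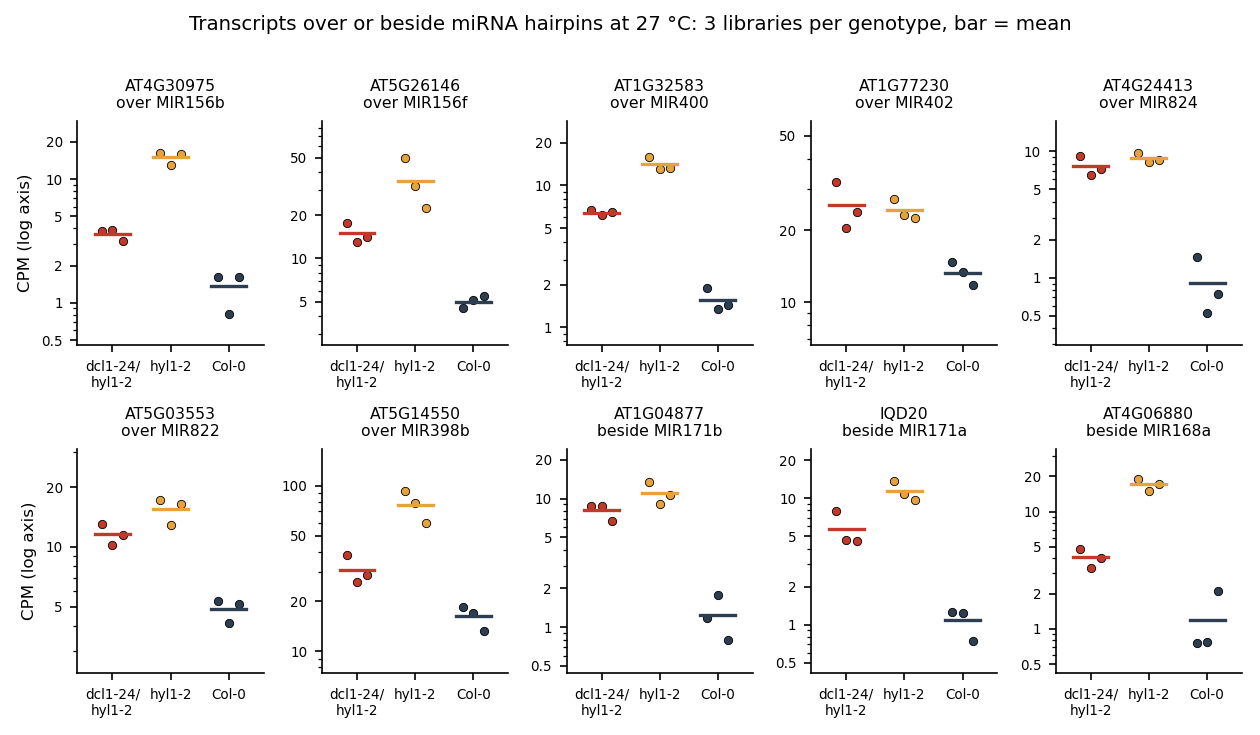
CPM on a logarithmic axis for 10 genes over or beside annotated miRNA hairpins at 27 °C, with points for the 3 libraries of dcl1-24/hyl1-2, hyl1-2 and Col-0 and a bar at their mean. In every panel, as for every gene called higher, the 3 dcl1-24/hyl1-2 libraries lie above the 3 Col-0 libraries, for example 3.169 to 3.88 against 0.815 to 1.63 CPM for AT4G30975 over MIR156b.

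Several genes of glucosinolate synthesis rose. Glucosinolates are sulfur-rich defence compounds of the cabbage family, made from methionine (aliphatic) or tryptophan (indole). Of 21 tested genes of their synthesis and regulation, 13 rose and 0 fell at 27 °C, beside 0.579% and 0.941% of all genes, all 21 relative changes were above 0, and the median was 0.92. The summed level of the list was 1019 to 1158 CPM in dcl1-24/hyl1-2, against 432 to 586 CPM in Col-0, and 20 of the 21 genes had no overlap between the groups, where 23.4% of all genes were higher without overlap. In hyl1-2 the same list moved the other way from the same Col-0 libraries, with a sum of 277 to 403 CPM. There 0 were called higher and 7 lower, beside 1.22% and 2.61% of all genes.

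The aliphatic pathway held the largest changes. BCAT4, which starts the chain elongation of methionine, had 46.1, 46.4 and 34.1 CPM in dcl1-24/hyl1-2, against 10.7, 6.23 and 5.7 CPM in Col-0, and rose by 2.29 ± 0.41 (adjusted p = 0.000938). CYP79F1, which turns elongated methionine into aldoximes, had 57.3, 63 and 50.8 CPM in dcl1-24/hyl1-2, against 13.7, 12.4 and 7.88 CPM in Col-0, a rise of 2.15 ± 0.45 (adjusted p = 0.00419). For both genes hyl1-2 was lowest, with 2.69, 1.74 and 4.38 CPM for BCAT4 and 0.732, 1.78 and 0.350 CPM for CYP79F1, so that the 3 genotypes did not overlap. MAM1, the condensing enzyme of the elongation cycle, had 83.9, 96.7 and 78.6 CPM in dcl1-24/hyl1-2, against 28.3, 30.5 and 14.7 CPM in Col-0 (1.70 ± 0.42, adjusted p = 0.0183). CYP83A1, which acts on the aldoximes, had 166, 147 and 114 CPM in dcl1-24/hyl1-2, against 44.9, 47.7 and 27.6 CPM in Col-0 (1.67 ± 0.42, adjusted p = 0.0223). Col-0 replicate 3 was the lowest Col-0 library for all 4 genes.

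Of the regulators, MYB29 of the aliphatic branch rose by 1.66 ± 0.33 (adjusted p = 0.00137) and MYB34 of the indole branch by 0.77 ± 0.21, whereas MYB28, the other main aliphatic regulator, changed by 0.74 ± 0.24 and was not called (adjusted p = 0.051), and MYB51 by 0.03. GS-OX1, which oxidises the side chain, SUR1 and UGT74B1 of the shared core, the glucosyltransferase UGT74C1, the sulfotransferases SOT17 and SOT18, and CYP83B1 of the indole branch were the others that rose. Seen after the values, 16 further genes of the pathway gave 9 that rose and 0 that fell, beside 0.579% and 0.941% of all genes, with a median of 0.53. AOP2, a gene of side chain modification, had 11.8, 8.49 and 5.49 CPM in dcl1-24/hyl1-2, against 2.17, 2.16 and 1.3 CPM in Col-0 and 0.439, 0.183 and 0.175 CPM in hyl1-2, and rose by 1.74 ± 0.33 (adjusted p = 0.000938). IPMI2, IMD1, BCAT3, BAT5, GSTF11, GSTU20, GGP1 and FMO GS-OX3 were the other 8, with relative changes of 0.45 to 1.56. All 8 were lower in every hyl1-2 library than in every dcl1-24/hyl1-2 library.

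Sulfate assimilation supplies the sulfate donor for the last step, and 3 of 21 tested genes of that list rose and 0 fell, beside 0.579% and 0.941% of all genes. Besides SULTR2;1 these were the adenylylsulfate kinases APK2, with 51.6, 56.7 and 55.4 CPM in dcl1-24/hyl1-2 against 28, 32.3 and 29.7 CPM in Col-0 (0.69 ± 0.19, adjusted p = 0.0138), and APK1, with 42.1, 42.2 and 40.1 CPM in dcl1-24/hyl1-2 against 24.6, 29.6 and 22 CPM in Col-0 (0.54 ± 0.16, adjusted p = 0.01). Both lay outside the range of Col-0 in every double mutant library, as every called gene did. In hyl1-2, APK2 was called lower, at 17.1, 11.1 and 16.3 CPM.

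The number of glucosinolate calls rested on single libraries. Under the deposited totals 14 of the 21 were called, beside 2.07% of all genes. This became 5 without Col-0 replicate 3, 7 without dcl1-24/hyl1-2 replicate 1, 8 without dcl1-24/hyl1-2 replicate 2 and 11 to 13 without any of the others. The 9 calls among the further genes became 3 without Col-0 replicate 3, 5 without dcl1-24/hyl1-2 replicate 2 and 6 without dcl1-24/hyl1-2 replicate 1. Of the 13 that rose under both scalings, 8 lost the call in at least 1 such fit, namely MAM1, CYP83A1, MYB34, UGT74B1, UGT74C1, SOT17, SOT18 and CYP83B1 (adjusted p up to 0.169), and the 5 that kept it in all 6 were BCAT4, CYP79F1, MYB29, GS-OX1 and SUR1. CYP83B1 and SOT17 lost it without any library but Col-0 replicate 1. IMD1, GGP1, BCAT3, BAT5, GSTF11, FMO GS-OX3, APK1 and APK2 also lost the call in at least 1 such fit, and AOP2, IPMI2 and GSTU20 kept theirs in all 6.

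**Figure D3:**
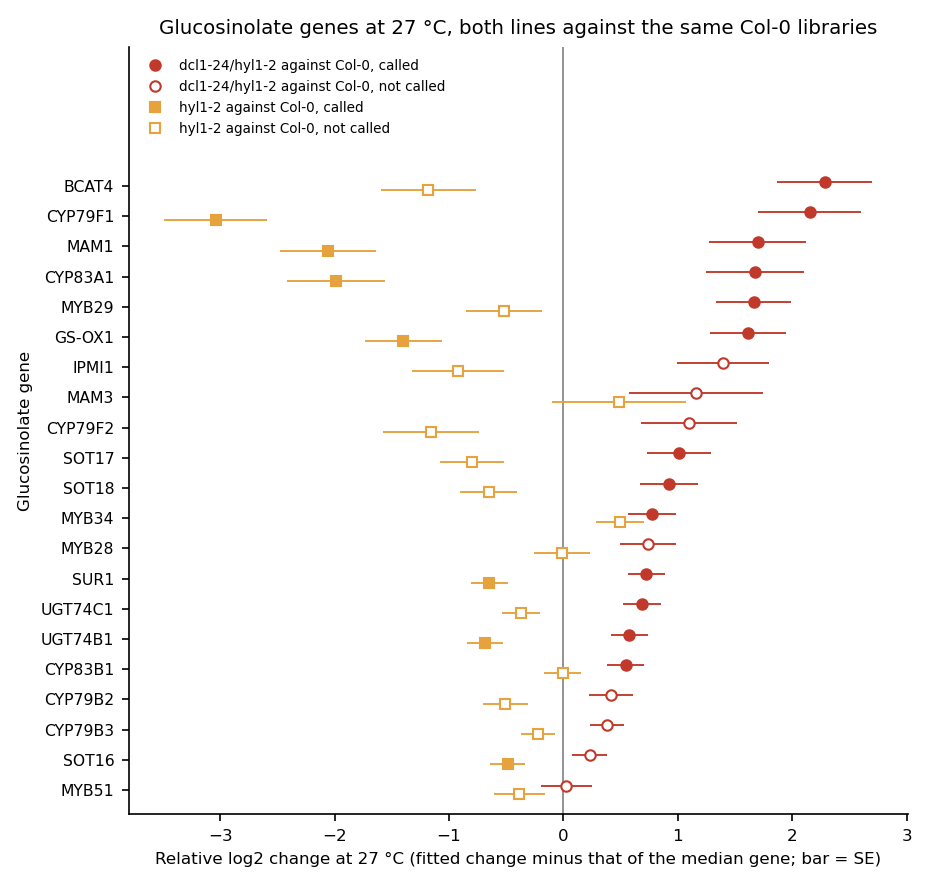
Relative log2 change at 27 °C with its SE for 21 glucosinolate genes, as circles for dcl1-24/hyl1-2 and squares for hyl1-2, each against the same 3 Col-0 libraries and filled where called; all circles lie above 0, with 13 filled and a highest value of 2.29 for BCAT4, while 7 squares are called and all 7 lie below 0.

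Jasmonate genes, another defence group, had 2 of 23 members that rose and 0 that fell, beside 0.579% and 0.941% of all genes. LOX2, the chloroplast lipoxygenase that starts jasmonate synthesis, had 253, 259 and 214 CPM in dcl1-24/hyl1-2, against 105, 145 and 82.8 CPM in Col-0, and rose by 0.99 ± 0.17 (adjusted p = 7.88e-05). The hyl1-2 libraries, at 93.2, 96.6 and 116 CPM, overlapped Col-0 and lay below the double mutant. AOC2, an allene oxide cyclase of the same pathway, rose by 0.86 ± 0.22 (adjusted p = 0.00922), a call lost without Col-0 replicate 3 or dcl1-24/hyl1-2 replicate 1 (adjusted p up to 0.136). At 21 °C the relative changes of LOX2 and AOC2 were -0.03 and -0.14, not called. Salicylic acid and immune genes had 0 of 21 members called under both scalings, 1 under the deposited totals, 0 with edgeR and 2 with DESeq2.

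Some genes of carbon starvation and of amino acid breakdown fell. Of 21 tested genes of sugar starvation and starch, 4 fell and 0 rose, beside 0.941% and 0.579% of all genes, with a list median of -0.43 and 6 of the 21 relative changes above 0. QQS, which influences the split of carbon and nitrogen between starch and protein, had 1.23, 1.03 and 0.714 CPM in dcl1-24/hyl1-2, against 29.6, 28.7 and 28.9 CPM in Col-0, and its relative change was -4.48 ± 0.29 (adjusted p = 9.79e-12). DIN6, a dark-induced asparagine synthetase, had 64.6, 78.4 and 129 CPM in dcl1-24/hyl1-2, against 256, 328 and 442 CPM in Col-0 (-2.1 ± 0.34, adjusted p = 0.00228). SEN1, induced by darkness and senescence, had 51.6, 58.9 and 65.1 CPM in dcl1-24/hyl1-2, against 128, 160 and 225 CPM in Col-0 (-1.67 ± 0.28, adjusted p = 0.00295), and DIN10, a raffinose synthase family gene, changed by -1.12 ± 0.15 (adjusted p = 0.000171). In none of the 4 did the groups overlap, which held for every called gene. In hyl1-2, 7 of the 21 were called lower and 0 higher against the same Col-0 libraries, beside 2.61% and 1.22% of all genes. There QQS was also low, at 0.537, 0.503 and 0.307 CPM, whereas DIN6 was at 283, 487 and 324 CPM, within or above the Col-0 range.

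Branched-chain amino acid breakdown, a mitochondrial pathway that feeds respiration when sugar is short, was listed after values were seen. Of its 14 genes 6 fell and 0 rose, beside 0.941% and 0.579% of all genes, with a median of -0.75. In hyl1-2, 6 of the 14 were called lower and 0 higher against the same Col-0 libraries, beside 2.61% and 1.22% of all genes. BCAT-2, which removes the amino group, had 11, 12.3 and 11.7 CPM in dcl1-24/hyl1-2, against 47.8, 56 and 62.7 CPM in Col-0 (-2.36 ± 0.26, adjusted p = 7.2e-06), with hyl1-2 between them at 20.4, 28.5 and 18 CPM. AT1G21400, a subunit of the branched-chain keto acid dehydrogenase, had 28.9, 22.5 and 26 CPM in dcl1-24/hyl1-2, against 67.7, 74.9 and 87.8 CPM in Col-0 (-1.71 ± 0.22, adjusted p = 0.000106). DIN4, which encodes another subunit, IVD, and the methylcrotonyl-CoA carboxylase genes MCCA and MCCB were the other 4, with relative changes of -1.14 to -0.96. THA1, a threonine aldolase, had 5.05, 8.71 and 9.11 CPM in dcl1-24/hyl1-2, against 65.1, 72.6 and 90.8 CPM in Col-0 (-3.43 ± 0.37, adjusted p = 1.33e-05), with hyl1-2 at 19.2, 28.6 and 14.2 CPM. All 6 breakdown genes and the 4 starvation genes kept their calls when any 1 library was left out.

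Detoxification genes, again a list made after values were seen, also included falls. Of 19 tested, 11 fell and 0 rose, beside 0.941% and 0.579% of all genes. None had a relative change above 0, and the median was -1.15. ChlAKR, a chloroplast aldo-keto reductase, had 0.395, 1.34 and 0.446 CPM in dcl1-24/hyl1-2, against 9.65, 5.03 and 7.19 CPM in Col-0 (-2.87 ± 0.40, adjusted p = 0.000119). UGT73C1, a glucosyltransferase, had 0.307, 0.862 and 0.893 CPM in dcl1-24/hyl1-2, against 6.64, 3.84 and 5.42 CPM in Col-0 (-2.46 ± 0.29, adjusted p = 8.01e-06), and hyl1-2 was as low, at 0.391, 0.183 and 0.307 CPM. The cytochrome P450 gene CYP81D11 had 24.6, 30.4 and 25.6 CPM in dcl1-24/hyl1-2, against 94, 66.1 and 80.9 CPM in Col-0 (-1.71 ± 0.23, adjusted p = 0.000132). AER, an alkenal reductase, had 60.1, 58.9 and 55.6 CPM in dcl1-24/hyl1-2, against 186, 138 and 157 CPM in Col-0 (-1.6 ± 0.15, adjusted p = 1.76e-07). The glucosyltransferases UGT74E2, DOGT1, UGT73B1 and UGT73B2, the glutathione transferases GSTU7 and GSTU19 and the oxophytodienoate reductase OPR1 fell by 0.72 to 2.27. The number of calls was 10 or 11 without any 1 library, and GSTU19 was not called without Col-0 replicates 1 or 3 or dcl1-24/hyl1-2 replicate 1. In hyl1-2, 16 of the 19 were called lower against the same Col-0 libraries, beside 2.61% of all genes.

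**Figure D4:**
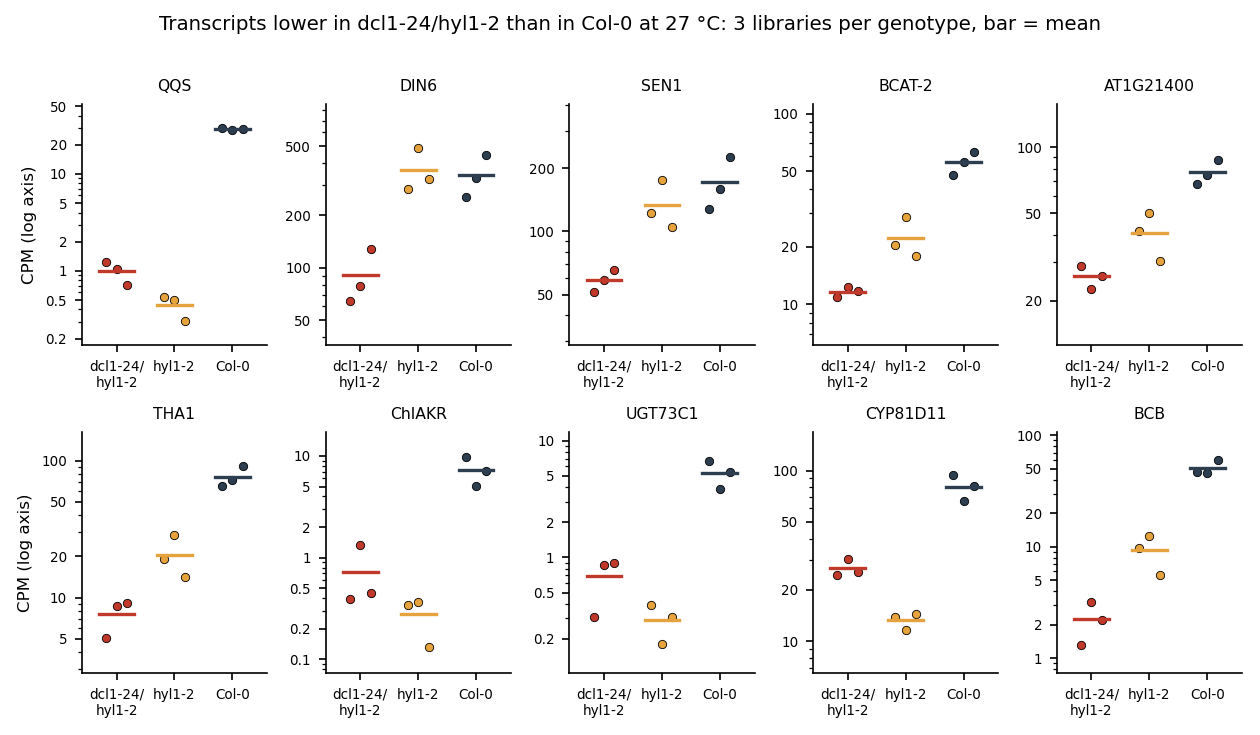
CPM on a logarithmic axis for 10 genes that fell, at 27 °C, with points for the 3 libraries of dcl1-24/hyl1-2, hyl1-2 and Col-0 and a bar at their mean; DIN6 and SEN1 are low in the double mutant and near Col-0 in hyl1-2, while QQS, ChlAKR and UGT73C1 are low in both lines, with QQS at 0.714 to 1.23 CPM in dcl1-24/hyl1-2 and 28.7 to 29.6 CPM in Col-0.

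Growth genes of the warm response gave few calls. PIF4, the main transcription factor of warm-induced elongation, had 102, 116 and 106 CPM in dcl1-24/hyl1-2, against 88.8, 112 and 79.1 CPM in Col-0, with overlapping groups and a relative change of 0.06 ± 0.23 (adjusted p = 0.626). PIF5 and PIF7 changed by 0.05 ± 0.18 and 0.05 ± 0.23. IAA29, an auxin-induced repressor, had 12.6, 16 and 15.7 CPM in dcl1-24/hyl1-2, against 7.56, 11.2 and 12.4 CPM in Col-0 (0.35 ± 0.29, adjusted p = 0.364), and IAA19 had 17.3, 27.8 and 16.3 CPM against 16.7, 26.2 and 21.1 CPM (-0.23 ± 0.30). IAA5 and IAA34 changed by 0.73 ± 0.39 and -0.64 ± 0.28, neither called. YUC8, a rate-limiting enzyme of auxin synthesis, had 12, 12 and 10.9 CPM in dcl1-24/hyl1-2, against 7.52, 11.1 and 10.1 CPM in Col-0 (0.12 ± 0.23), and YUC9 changed by 0.23 ± 0.30.

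Small auxin-up RNA (SAUR) genes, short-lived promoters of cell expansion, had 0 of 31 members called by limma, edgeR or DESeq2, and a median of 0.10. At an unadjusted p under 0.05 in limma were 3, beside 3785 of all 21780 genes. Of the SAUR19 to SAUR24 cluster, SAUR19 changed by -0.39 ± 0.30, SAUR20 by -0.10 ± 0.27, SAUR21 by 0.06 ± 0.26, SAUR22 by 0.45 ± 0.32, SAUR23 by -0.14 ± 0.29 and SAUR24 by 0.47 ± 0.36. SAUR27 and SAUR28 changed by -0.08 ± 0.42 and 0.39 ± 0.31. Of 24 Aux/IAA genes limma under the deposited totals called 4, DESeq2 4, the replicate block 4 and edgeR 1. Of all 21780 genes these fits called 451, 685, 818 and 436. At an unadjusted p under 0.05 in limma were 9 of the 24, beside 3785 of all 21780 genes. Without overlap 11 were higher and 1 lower, where 23.4% of all genes were higher. Under both scalings 1 of the 24 rose, beside 0.579% of all genes. It was IAA4, with 70.2, 51.9 and 51.7 CPM in dcl1-24/hyl1-2 and 36.6, 36.8 and 33.4 CPM in Col-0 (0.52 ± 0.15, adjusted p = 0.00969), and HAT2, a homeodomain gene of shade and auxin responses, had 61.8, 44.7 and 41.5 CPM in dcl1-24/hyl1-2 and 27, 22.9 and 25.1 CPM in Col-0 (0.79 ± 0.22, adjusted p = 0.0145). Replicate 1 was the highest double mutant library for both, and both calls were lost without it or without Col-0 replicate 3, and that of HAT2 also without Col-0 replicate 2, at adjusted p up to 0.169. Lists of auxin synthesis (11 tested), auxin transport (17), GH3 and auxin inactivation (13), light signalling (22), brassinosteroid (15) and gibberellin (15) had 0 members called by limma or edgeR, with 2, 2, 0, 3, 3 and 0 at an unadjusted p under 0.05. DESeq2 called 1 light signalling and 1 brassinosteroid gene, and limma with the replicate block called 1 auxin synthesis and 1 light signalling gene.

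Of 19 expansin and xyloglucan endotransglucosylase genes, which loosen the cell wall, 2 fell, beside 0.941% of all genes. EXPA2 had 1.01, 0.776 and 0.312 CPM in dcl1-24/hyl1-2, against 6.06, 4.22 and 4.31 CPM in Col-0 (-2.35 ± 0.31, adjusted p = 7.22e-05), and XTH24 had 179, 216 and 193 CPM in dcl1-24/hyl1-2, against 445, 488 and 699 CPM in Col-0 (-1.6 ± 0.23, adjusted p = 0.000346). The hyl1-2 libraries resembled the double mutant for XTH24, at 215, 198 and 155 CPM, and for EXPA2, at 2.78, 5.76 and 2.06 CPM, lay above every double mutant library. Heat shock genes fell in 3 of 24 cases, against the same 0.941%. HSP17.6C, a small heat shock protein gene, had 1.01, 0.474 and 0.446 CPM in dcl1-24/hyl1-2, against 3.63, 2.21 and 4.22 CPM in Col-0 (-1.91 ± 0.31, adjusted p = 0.000938). HSP17.6II and HSP23.6-MITO, also under 5 CPM, changed by -1.56 and -1.52, and both calls were lost when single libraries were left out, without Col-0 replicate 1 or dcl1-24/hyl1-2 replicate 3 for either and without Col-0 replicate 3 or dcl1-24/hyl1-2 replicate 2 for HSP23.6-MITO.

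Among developmental genes, the flowering repressors FLC and MAF4 rose, 2 of 14 in their list, beside 0.579% of all genes. FLC had 22.7, 13.4 and 15.8 CPM in dcl1-24/hyl1-2, against 9.31, 8.53 and 7.97 CPM in Col-0 (0.77 ± 0.17, adjusted p = 0.00197), and MAF4 had 6.24, 2.63 and 4.82 CPM in dcl1-24/hyl1-2, against 0.919, 1.29 and 2.13 CPM in Col-0 (1.19 ± 0.26, adjusted p = 0.00236). FLC overlaps AT5G01675, at 13 CPM on average, so reads may belong to either. In the stomatal lineage 2 of 18 rose, beside 0.579% of all genes. They were BASL, a polarity protein of asymmetric division, with 5.45, 5.17 and 3.88 CPM in dcl1-24/hyl1-2 and 0.793, 1.2 and 0.788 CPM in Col-0 (1.74 ± 0.29, adjusted p = 0.000171), and FLP, a MYB factor of the last division, which rose by 0.67 ± 0.18. The list median was 0.42, and 13 of the 18 were at an unadjusted p under 0.05 in limma, beside 3785 of all 21780 genes. FLP was not called without Col-0 replicate 3 or dcl1-24/hyl1-2 replicate 1. CYCA3;1, an S-phase cyclin, rose by 0.90 ± 0.25 (adjusted p = 0.017), and its call was lost without Col-0 replicate 3, dcl1-24/hyl1-2 replicate 1 or dcl1-24/hyl1-2 replicate 3, at adjusted p up to 0.197. It was the 1 of 25 cell division genes called under both scalings, beside 0.579% of all genes called higher. Of the 25, 21 had relative changes above 0, with a median of 0.28. At an unadjusted p under 0.05 in limma were 15, beside 3785 of all 21780 genes, and 19 were higher without overlap, where 23.4% of all genes were. The summed level of the list was 391 to 429 CPM in dcl1-24/hyl1-2, against 281 to 318 CPM in Col-0.

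Chromatin-related genes gave 1 rise and 1 fall of 16, beside 0.579% and 0.941% of all genes. SDC, an F-box gene that DNA methylation silences in wild type, had 2.59, 1.77 and 2.28 CPM in dcl1-24/hyl1-2, against 0.334, 0.192 and 0.464 CPM in Col-0 (1.55 ± 0.28, adjusted p = 0.000443), with hyl1-2 at 0.976, 1.6 and 0.963 CPM. HTA9, one of the genes of histone variant H2A.Z, had 54.1, 66.3 and 58.4 CPM in dcl1-24/hyl1-2, against 88.4, 101 and 112 CPM in Col-0 (-0.91 ± 0.17, adjusted p = 0.0163), and lost the call without Col-0 replicates 2 or 3 or dcl1-24/hyl1-2 replicates 1 or 3 (adjusted p up to 0.135). MYBL2, a repressor of anthocyanin synthesis, had 4.96, 5.82 and 5.27 CPM in dcl1-24/hyl1-2, against 13.8, 13.6 and 11.1 CPM in Col-0 (-1.34 ± 0.24, adjusted p = 0.00437). The hyl1-2 libraries were on the other side of Col-0, at 20.8, 22 and 18.7 CPM. FRO6, a ferric chelate reductase of leaves, had 12, 13.2 and 14.4 CPM in dcl1-24/hyl1-2, against 4.72, 8.77 and 6.68 CPM in Col-0 (0.80 ± 0.19, adjusted p = 0.00441; 0.0535 without Col-0 replicate 1), and hyl1-2 was highest at 34.3, 33.4 and 37.2 CPM.

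Transcripts of the organelle genomes and ribosomal RNA were lower in the double mutant, and this difference moved with the groups. Beside 0.941% of all genes that fell and 0.579% that rose, 10 of 115 tested chloroplast genes fell and 0 rose, with a median of -1.47. Of 49 mitochondrial genes 11 fell and 0 rose, with a median of -1.08, and all 4 nuclear ribosomal RNA genes in the table fell. Of these calls, 8 of the 10, 7 of the 11 and 2 of the 4 were lost in at least 1 fit without a library. ATMG00030 had 7.29, 16.8 and 13.7 CPM in dcl1-24/hyl1-2, against 128, 140 and 82.4 CPM in Col-0 (-3.36 ± 0.41, adjusted p = 7.68e-05), and hyl1-2 had 86.3, 201 and 102 CPM. AT2G01010, a nuclear ribosomal RNA gene, had 606, 429 and 812 CPM in dcl1-24/hyl1-2, against 2979, 2103 and 2222 CPM in Col-0 (-2.17 ± 0.45, adjusted p = 0.0181), and its call was lost in 4 of the 6 fits without 1 library and that of AT3G41768 in 3. ATCG00920, a chloroplast ribosomal RNA gene, was at 10959 CPM in Col-0 replicate 3, against 2542 and 1982 CPM in the other Col-0 libraries, and lost its call without Col-0 replicate 3 or any 1 double mutant library. In hyl1-2 no gene of the 3 groups was called. The libraries were made from RNA enriched for poly(A) tails. Scaling by totals over nuclear genes without the 50 highest, chosen after seeing the data, called 429 genes, 180 higher and 249 lower. Of the 99 named calls it lost 0. Beyond these scalings, the part of the organelle and ribosomal shares in the other results was not tested. Nuclear genes of photosynthesis and chlorophyll synthesis had 0 of 37 members called by limma, edgeR or DESeq2 (1 by limma with the replicate block), 2 at an unadjusted p under 0.05 and a median of -0.21.

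Marker lists of root, root hair, seed and flower tissue had 0 called members under either scaling, with edgeR or with DESeq2. The stomatal lineage list, also a marker list, had 2 of 18 called higher, beside 0.579% of all genes, as given above. The summed level of 16 root genes was 381 to 517 CPM in dcl1-24/hyl1-2 and 395 to 470 CPM in Col-0, with 0 of 15 tested members called, 0 of them at an unadjusted p under 0.05, and 0 of 18 root hair and 0 of 13 seed storage and oleosin genes were called, with 0 and 2 at an unadjusted p under 0.05. Root hair genes summed to 122 to 216 CPM in dcl1-24/hyl1-2 and 117 to 123 CPM in Col-0. Seed storage and oleosin genes summed to 328 to 440 CPM in dcl1-24/hyl1-2, against 469 to 517 CPM in Col-0, without overlap, with a median relative change of -0.31 and 11 of 13 below 0 (13 of 13 at 21 °C), and the part of this difference in the other results was not tested. Flower and pollen genes, which a seedling should lack, summed to 15.7 to 20.7 CPM in dcl1-24/hyl1-2 and 17.1 to 19.4 CPM in Col-0.

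The largest changes of the comparison were at single loci. AT3G01345, of undescribed function, had 0.439, 0.733 and 0.357 CPM in dcl1-24/hyl1-2, against 244, 250 and 233 CPM in Col-0 (-8.09 ± 0.34, adjusted p = 3.36e-16), and BCB, a blue copper-binding protein gene, had 1.32, 3.19 and 2.19 CPM in dcl1-24/hyl1-2, against 46.4, 46.1 and 60.0 CPM in Col-0 (-4.44 ± 0.33, adjusted p = 6.52e-09). AT3G05945 changed by -3.13 ± 0.24. In the other direction, AT1G64795 had 14.9, 14 and 12.1 CPM in dcl1-24/hyl1-2, against 0.0835, 0.144 and 0.232 CPM in Col-0, values near 3 reads (4.28 ± 0.26, adjusted p = 4.28e-13). It overlaps AT1G64790, at 112 CPM. MRD1 had 21.8, 14.2 and 16.7 CPM in dcl1-24/hyl1-2, against 0.501, 0.192 and 0.649 CPM in Col-0 (4.1 ± 0.23, adjusted p = 8.31e-14), and the overlapping AT1G07887 and HEI10 had nearly the same counts, so they stand for 1 signal. AT3G01345, AT1G64795 and MRD1 were alike in hyl1-2, at 0.219 to 0.830, 17.5 to 20.4 and 24.9 to 30.3 CPM, so for these loci both lines that carry hyl1-2 differed from Col-0, and the insertion and a difference of seed stock cannot be told apart.

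The same genotypes at 21 °C share no library with the 27 °C comparison, but both comparisons come from 1 fit with a common spread for each gene. Residuals of equally numbered libraries also correlated between temperatures, up to 0.406 for dcl1-24/hyl1-2 replicate 3. Calls at 27 °C and 21 °C are therefore not independent. There 152 genes were called under both scalings (0.698% of those tested), 76 higher (0.349%) and 76 lower (0.349%). Of the 331 genes called at 27 °C, 96 were called at 21 °C too, 45 higher and 51 lower at both, which is 29.0% of the 27 °C calls and 63.2% of the 21 °C calls, and none changed direction. The sign at 21 °C was the same for 120 of the 126 genes that rose and 200 of the 205 that fell, against 63.4% of all genes tested. Across the 331 genes the relative changes at both temperatures had a Pearson's r of 0.919, and across all 21780 genes of 0.546, as descriptions over genes that are not independent. Genes that rose had a median of 0.88 at 27 °C and 0.62 at 21 °C, and genes that fell of -1.32 and -0.73. Since the members were chosen by their 27 °C change, larger values there are built in.

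The difference between the 27 °C and 21 °C comparisons was tested for each gene as an interaction, and limma called 0 of 21780 genes, with 938 (4.31%) at an unadjusted p under 0.05 and a lowest adjusted p of 0.537. edgeR and DESeq2 on the recovered reads also called 0, with 964 and 1027 genes at an unadjusted p under 0.05, and limma with a pseudocount of 2 called 1. QQS had 0.337 ± 0.126 CPM in dcl1-24/hyl1-2 and 28 ± 0.587 CPM in Col-0 at 21 °C (SD, n = 3 each), as far apart as in the warm. CYP79F1 had 44.9 ± 10.3 CPM in dcl1-24/hyl1-2 and 8.08 ± 4.42 CPM in Col-0 at 21 °C (SD, n = 3 each). Of the 21 glucosinolate genes 9 rose and 0 fell there, beside 0.349% of all genes in each direction. UGT73C1 had 0.531 ± 0.102 CPM in dcl1-24/hyl1-2 and 0.787 ± 0.250 CPM in Col-0 at 21 °C (SD, n = 3 each), with both genotypes low. Of the 19 detoxification genes 3 fell at 21 °C, beside 0.349% of all genes. DCL1 was called at 21 °C but not at 27 °C, with 84.6 ± 4.80 CPM in dcl1-24/hyl1-2 and 44.9 ± 5.51 CPM in Col-0 (SD, n = 3 each; 0.82 ± 0.18, adjusted p = 0.00525). As no interaction passed, none of these genes is shown to differ between the temperatures.

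**Figure D5:**
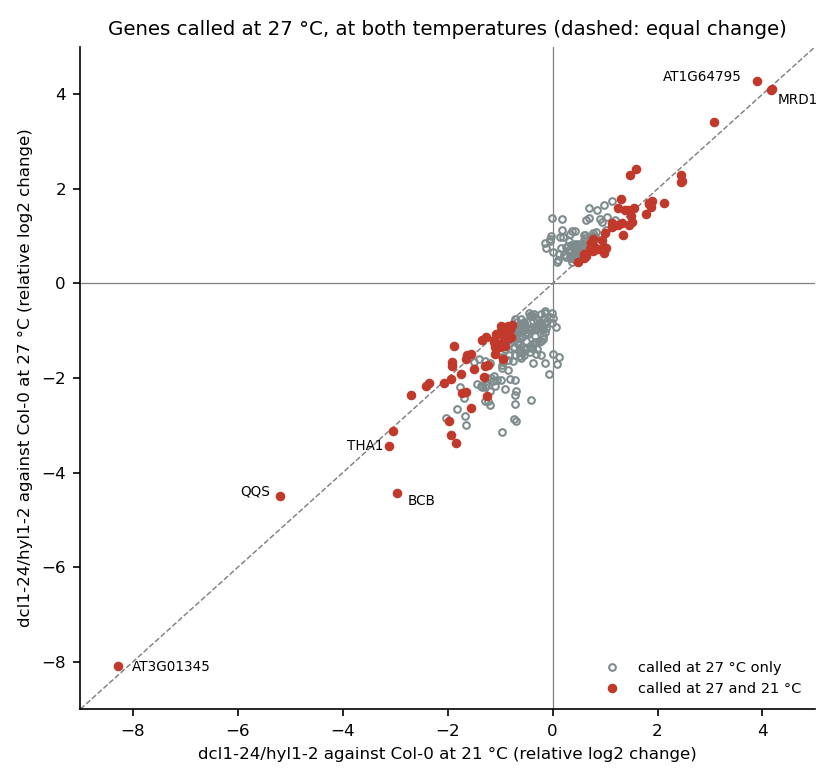
Relative log2 change of dcl1-24/hyl1-2 against Col-0 at 27 °C against that at 21 °C, 1 point for each of the 331 genes called at 27 °C, filled where also called at 21 °C (96 genes) and with a dashed line of equal change; all filled points lie to the lower left or upper right of the origin, from AT3G01345 at -8.09 to AT1G64795 at 4.28 on the 27 °C axis.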

How the data were processed

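RNA of whole seedlings was enriched for poly(A) tails and sequenced in pairs. As the submitters' processing notes give it, reads were mapped with STAR 2.7.7a and counted with featureCounts 2.0.1. Whether strand was used in that step is not stated in these sources. The deposited table is labelled FPKM, but its values are CPM, as the authors made them. Each column came to 999904.2 to 999960.4, and 100% of values were whole multiples of 1 read at a tolerance of 0.001. The log-scale test was therefore kept on CPM.

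limma 3.58.1 with trend and robust options was fitted to log2(CPM + 0.5) of 21780 genes (at least 1 CPM in 3 of 30 libraries), with 1 mean per group over all 30 libraries. A call is an adjusted p under 0.05 (Benjamini-Hochberg). edgeR 4.0.16, run on the recovered reads, called 436 genes, and DESeq2 1.42.0 was a further alternative. Other alternatives were median-of-ratios scaling, pseudocounts of 0.1 and 2, a filter of 5 CPM, no filter, only the groups compared, limma without its trend and robust options, a replicate block and leaving out each library. Totals over nuclear genes without the 50 highest, and leaving out replicate 3 at 21 °C, were chosen after seeing the data. The replicate block was 1 factor for replicate number over all 30 libraries, so it joined both temperatures and all genotypes. Within a temperature, residuals of equally numbered libraries of the compared groups correlated above 0.1. Between temperatures, those of dcl1-24/hyl1-2 replicate 2 correlated at 0.0936 and those of dcl1-24/hyl1-2 replicate 3 at 0.406, the lowest and highest values. The scripts were tested on simulated data.

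The members and gene lists were chosen with earlier results of these data known, and the lists on hairpins, further glucosinolate genes, amino acid breakdown, detoxification and pentatricopeptide repeat genes after values were seen. Named genes were those in the genotypes or the study text, for each list up to 4 called members whose groups did not overlap, largest changes first, the 10 largest rises and 10 largest falls among genes averaging at least 5 CPM in the higher group, every called small RNA target or pathway gene, and members of the later lists. The rule also named loci silent in 1 genotype and interaction genes, of which there were none. The TAIR10.1 annotation matched 25076 of the listed genes and not 224, and 95 of the 331 called genes overlap another gene, so reads may belong to either.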

Additional observations from a re-analysis of the deposited data

How the results depend on the processing

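Of the 331 genes called under both scalings at 27 °C, 0 had a relative change of opposite sign in any of the 17 alternatives that gave them a value, and 195 lost the call in at least 1 fit without a library. The 451 genes called at 27 °C with the deposited totals became 1261 with only the groups compared, 685 with DESeq2 and 176 to 320 with 1 library left out (176 without Col-0 replicate 3, 180 without dcl1-24/hyl1-2 replicate 1, 285 without dcl1-24/hyl1-2 replicate 3, 299 without Col-0 replicate 2), and 390 to 582 with the other settings apart from the replicate block. The split of higher against lower calls was 245 to 206 with the deposited totals, 126 to 314 with median-of-ratios scaling and 126 to 310 with edgeR. At 21 °C the 184 calls became 13 with only the groups compared, 391 with DESeq2, 117 without the 21 °C libraries of replicate 3 and 85 to 197 with 1 library left out (85 without Col-0 replicate 2, 101 without dcl1-24/hyl1-2 replicate 1). The difference between temperatures gave 1 call with a pseudocount of 2. For hyl1-2 against Col-0, 957 calls became 578 to 713 with 1 library left out, the lowest without Col-0 replicate 1. For dcl1-24/hyl1-2 against hyl1-2, 2538 calls became 1349 with median-of-ratios scaling, 1409 with edgeR, 1398 with totals over nuclear genes without the 50 highest, an alternative chosen after seeing the data like the 21 °C one without replicate 3, and 757 to 2368 with 1 library left out (757 and 1632 without dcl1-24/hyl1-2 replicates 1 and 3, 1048 and 1398 without hyl1-2 replicates 2 and 3). The replicate block gave 818 calls at 27 °C, 359 at 21 °C, 3924 against hyl1-2 and 1337 for hyl1-2 against Col-0, and it changed no call of a gene named as called. Fits without a library have fewer samples, and the cause of the other shifts was not tested.

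Of 99 named genes called under both scalings, 61 kept the call in every alternative that gave them a value (54 of them had one in all 17, and 14 of the 99 did not pass the filter of 5 CPM), 37 lost it in at least 1 fit without a library and 62 in none. At 20.9 to 23.9 M reads per library, the Col-0 levels of AT1G64795, near 3 reads, carry a large counting error.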

Other observations

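The nuclear genes called under both scalings lay on every chromosome, with 42 that rose and 50 that fell of 5768 tested on chromosome 1, 20 and 30 of 3320 on chromosome 2, 21 and 30 of 4269 on chromosome 3, 16 and 37 of 3278 on chromosome 4 and 27 and 37 of 4981 on chromosome 5. The falls on chromosomes 2 and 3 include the 4 ribosomal RNA genes. Those on chromosome 2 also include neighbouring loci from AT2G07641 to AT2G07747, and whether organelle reads were counted there was not tested. Other lists gave few or no calls in dcl1-24/hyl1-2 against Col-0 at 27 °C. Unfolded protein response (13 tested), hypoxia (13), cold, ABA and water deficit (19) and leaf polarity and meristem genes (19) had 0 members called by limma, edgeR or DESeq2, with 2, 0, 1 and 3 at an unadjusted p under 0.05. With the replicate block, limma called 1 leaf polarity and meristem gene. Clock genes (22) and phosphate starvation genes (14) had 0 called by limma or edgeR, 2 each by DESeq2 and 1 each by limma with the replicate block. In hyl1-2, set against the same Col-0 libraries, 4 of the 13 unfolded protein response genes and 8 of 27 copper and iron genes were called lower and 0 and 3 higher, beside 2.61% and 1.22% of all genes in that comparison. In the double mutant, where these shares were 0.941% and 0.579%, 0 of either list were called lower, and 1, FRO6, was called higher.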
